A study of Homo sapiens with 24 samples.

Results

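COL7A1, PABPC1L and HERC2P2 are 3 of the 26364 genes counted by RNA-seq in T-47D cells, a line from a luminal, estrogen receptor-positive mammary ductal carcinoma. They were chosen from their measured fall after a miR-331-3p mimic in cells with the Y537S estrogen receptor (ER) mutation. Among genes that edgeR's quasi-likelihood test called lower there, that fell in both clones and that averaged at least 3 log2 CPM (counts scaled to library size), they had the 3 largest fitted falls. Their values in that comparison are therefore a description and carry no test here. The study used clones that kept wildtype (WT) ESR1 or carried the Y537S or D538G change at 1 endogenous ESR1 allele, with 2 clones for each of 3 genotypes. Y537S clones 1 and 2 received a mimic negative control, a miR-301b-3p mimic, a miR-331-3p mimic, an inhibitor negative control or a let-7f-5p inhibitor. D538G clones A5 and C2 received the mimic control, the miR-301b-3p mimic or a miR-181c-5p mimic, and WT clones D1 and D4 received the mimic control, the miR-331-3p mimic, the miR-301b-3p mimic or the mimic of miR-181c-5p. All cells were kept in hormone-deprived medium, transfected at 10 nM and collected after 24 h, which gave 12 conditions with 1 library per clone. No D538G library received the miR-331 mimic.

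The genes differ in what they encode. COL7A1 encodes collagen VII, a homotrimeric collagen secreted by epithelial cells that forms the anchoring fibrils under the basement membrane, and its loss causes dystrophic epidermolysis bullosa. PABPC1L encodes a cytoplasmic poly(A)-binding protein best known from oocytes and early embryos, where it takes part in translation of stored mRNA. HERC2P2 is a transcribed pseudogene copy of HERC2, which encodes a giant E3 ubiquitin ligase. A microRNA pairs with transcripts mainly through its seed, bases 2 to 8, and most studied sites lie in the 3′UTR, where pairing lowers mRNA stability or translation.

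The sequences of the mimicked or inhibited microRNAs are given first because the 3 genes can be read against them. They come from RefSeq (GRCh38.p14), 5′ to 3′, with the seed in capitals, and no seed was shared among them. The locus of miR-331-3p is chr12:95308480-95308500 on the plus strand.
miR-331-3p: gCCCCUGGgccuauccuagaa
miR-301b-3p: cAGUGCAAugauauugucaaagc
miR-181c-5p: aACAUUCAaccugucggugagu
let-7f-5p: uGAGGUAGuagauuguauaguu

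The letters CCAGGGG, the complement of the miR-331-3p seed, were searched on the sense strand of 1 canonical transcript per gene. COL7A1 held 6 matches, all in its coding part, and none in its 3′UTR. Of 13243 tested genes with a coding part, 17.1% held a match there, and of 13221 with a 3′UTR, 15.5% held one in the 3′UTR. The coding part of COL7A1 is long, at 8835 bases. Of 171 coding parts of at least 8000 bases, 61.4% held at least 1 match (median 1 and at most 9), and 6 held 6 or more. These were chosen by length and not matched for GC content, which was 64.8% in the COL7A1 transcript. HERC2P2 held 1 match in its noncoding transcript, against a match in 30.2% of 14366 transcripts. PABPC1L held no match. The matches in COL7A1 and HERC2P2 are shown in hg19 with 10 bases on each side and the match in capitals, as the transcript reads.
COL7A1, across the junction of exons 13 and 14: tgcgcagcacCCAGGGGgttgagcgga
COL7A1, exon 27, chr3:48623837-48623843: ccagcacgtaCCAGGGGtgatggttct
COL7A1, exon 32, chr3:48623023-48623029: ctcccggcccCCAGGGGccccctggaa
COL7A1, exon 45, chr3:48620074-48620080: ccgggggctgCCAGGGGttgctggacg
COL7A1, exon 68, chr3:48614148-48614154: tccttggaccCCAGGGGcctccaggcc
COL7A1, exon 118, chr3:48602220-48602226: tggtccagagCCAGGGGacaggtactg
HERC2P2, exon 7, chr15:23331000-23331006: ctgcagctccCCAGGGGgcacacctgc

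None of the 3 canonical transcripts held a seed match for miR-301b-3p or let-7f-5p, and HERC2P2 alone held 1 for miR-181c-5p. Of 14366 transcripts, 21.6% held a match for miR-301b-3p, 23.0% for let-7f-5p and 30.3% for miR-181c-5p. A match is a description of letters and not of a bound site.

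In the GENCODE annotation of hg19, COL7A1 (ENSG00000114270) lies at chr3:48601506-48632762 on the minus strand and its canonical transcript has 119 exons, 9231 bases and 64.8% GC. PABPC1L (ENSG00000101104) lies at chr20:43538701-43587676 on the plus strand, with 15 exons, 2141 bases and 58.9% GC. HERC2P2 (ENSG00000276550) lies at chr15:23293283-23377526 on the minus strand, with 32 exons, 5181 bases and 50.5% GC. The median GC content over 14366 tested genes was 48.8%, and 4.51% of them were as GC-rich as COL7A1. Transcripts annotated with a retained intron made up 7 of 11 for COL7A1 and 4 of 19 for PABPC1L, whereas the median protein-coding gene had 1, 21.4% had at least 4 and 8.17% had at least 7. These genes were not matched for number of exons or transcripts. HERC2P2 had a single annotated transcript. TOMM34 overlaps PABPC1L by 16906 bases on the opposite strand, and the strand setting of the counting is not given in the sources used here. HERC2P2 shares near-identical sequence with HERC2 and its other copies, so its counts are uncertain to the extent that reads were split among them.

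The pair of Y537S libraries given the miR-331 mimic stood apart from the other 22 libraries in more than these genes. Among 10108 genes with a median of at least 8 CPM in the other libraries, 33 lay over 8-fold below that median in both, while none did so in any other Y537S condition and 4 to 8 did so in each D538G or WT condition. All 3 members were among the 33, but they were chosen by their fall in these same libraries, so this gives no independent support. Of the 30 that the annotation covers, 23.3% were lncRNAs and 10.0% pseudogenes, against 1.42% and 0.589% of all genes at that level. At least 1 annotated transcript with a retained intron was held by 66.7% of the 30, against 63.2% of all genes at that level. The nuclear RNAs MALAT1 and NEAT1 were among them too: MALAT1 stood at 884 and 1114 CPM against 4360 to 18275 CPM elsewhere, and NEAT1 at 76.8 and 139 CPM against 658 to 2582 CPM. The part of this in the members' values was not tested. Totals ranged from 31379962 to 50526442 counts per library. TMM factors, which scale library sizes for composition, were 0.896 and 0.928 in the Y537S miR-331 pair and 0.993 to 1.04 in the other libraries. Luminal markers summed to 8955 to 14307 CPM, with the highest sum in this pair (13787 and 14307 CPM). Basal markers summed to at most 8.36 CPM, mostly TP63, with KRT5 and KRT14 at or below 0.355 CPM. Of the 6 fibroblast markers COL1A1 reached 81.2 CPM, COL3A1 4.90 CPM and VIM 1.97 CPM, while COL1A2, PDGFRB and FAP stayed at or below 0.110 CPM.

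**Figure D1:**
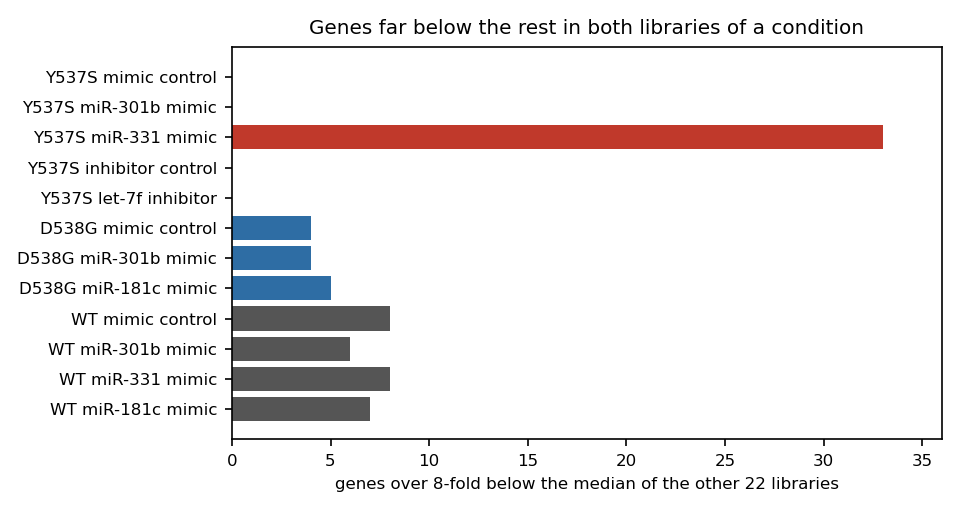
Number of genes (x axis) that lay over 8-fold below the median CPM of the other 22 libraries in both libraries of a condition (y axis), among genes with a median of at least 8 CPM. The bar for Y537S cells given the miR-331 mimic reaches 33, and the others reach 0 to 8.

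In Y537S cells the 3 genes dropped to a small fraction of their control level in both clones. COL7A1 had 670 and 868 counts in the mimic control and 24 and 39 counts after the miR-331 mimic in clones 1 and 2, or 17.3 and 20.4 CPM against 0.595 and 0.948 CPM. Thus clone 1 kept 3.72% and clone 2 kept 4.88% of the control level, and the fitted log2 fold change was −4.59 (SE 0.289). PABPC1L had 1832 and 2452 counts in the control and 166 and 171 after the mimic, or 47.3 and 57.7 CPM against 4.11 and 4.16 CPM. It kept 8.79% and 7.28% in clones 1 and 2, with a log2 fold change of −3.65 (SE 0.162). HERC2P2 had 1064 and 1345 counts in the control and 66 and 103 after the mimic, or 27.5 and 31.7 CPM against 1.64 and 2.50 CPM. It kept 6.12% and 8.06%, with a log2 fold change of −3.82 (SE 0.252). The treated and control libraries did not overlap for any of the 3, nor for 69.8% of 14877 tested genes. In this comparison edgeR's quasi-likelihood test called 15.8% of 14877 genes lower and 17.2% higher (adjusted p under 0.05), and the choice of the members used these calls. In bulk RNA, fewer expressing cells and less RNA per cell cannot be told apart.

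The order of fall did not break sharply after the third gene. HSF4, a heat shock transcription factor gene, followed with a log2 fold change of −3.61, then HNRNPU-AS1 with −3.53, STAG3L5P-PVRIG2P-PILRB with −3.42 and MALAT1 with −3.35. Another 97 genes called lower fell more than PABPC1L but averaged under 3 log2 CPM, among them LINC01004 (−4.22 at a mean of 2.92 log2 CPM) and SEC31B (−4.13 at 2.62 log2 CPM).

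No other Y537S library had so low a level of any of the 3 genes. In the other 8 Y537S libraries COL7A1 lay at 17.3 to 21.9 CPM, PABPC1L at 47.3 to 58.9 CPM and HERC2P2 at 23.3 to 31.7 CPM. Over all 22 libraries without the Y537S miR-331 pair, the ranges were 17.3 to 38.9 CPM for COL7A1 (median 25.9), 47.3 to 105.9 CPM for PABPC1L (median 74.2) and 14.6 to 47.5 CPM for HERC2P2 (median 27.1). The lowest of the 22 was 18.3-fold above the higher Y537S miR-331 library for COL7A1, 11.4-fold for PABPC1L and 5.83-fold for HERC2P2. With the inhibitor control or the miR-301b libraries in place of the mimic control, the fall kept its direction for all 3 genes, a choice of control made after seeing the data. Both fits kept the treated libraries that chose the genes, so they give no independent support.

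**Figure D2:**
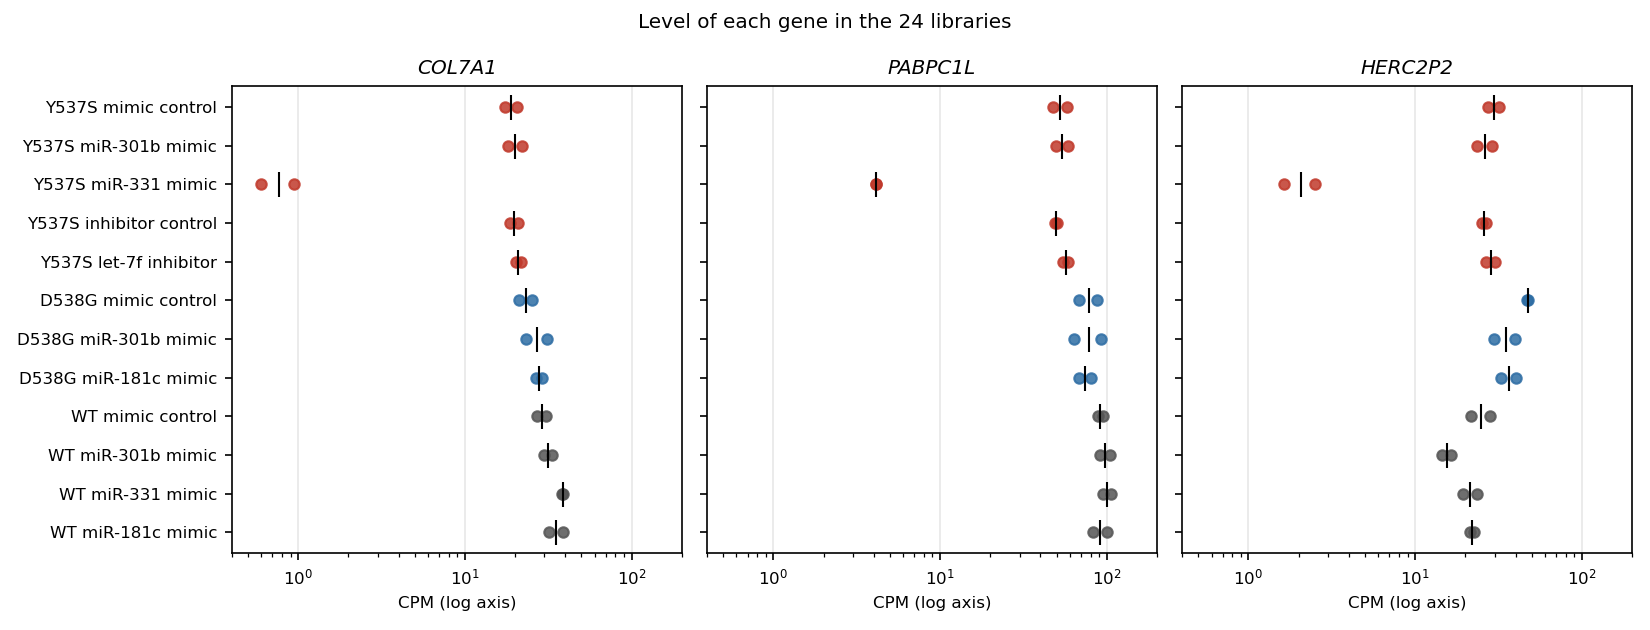
Level of each gene in CPM (x axis, log scale) in the 12 conditions (y axis), with 1 point per library and a bar at the mean of the 2 clones. The Y537S miR-331 libraries lie at 0.595 and 0.948 CPM for COL7A1, 4.11 and 4.16 CPM for PABPC1L and 1.64 and 2.50 CPM for HERC2P2, to the left of all other libraries.

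Ordered by mean level, COL7A1 ran from 38.6 ± 0.371 CPM (SD, n = 2) in WT cells with the miR-331 mimic down through WT, D538G and Y537S conditions to 18.9 ± 2.21 CPM in the Y537S mimic control, and every pair of neighbours in that order overlapped. Only the last step, to 0.771 ± 0.250 CPM in Y537S cells with the miR-331 mimic, separated neighbours. PABPC1L was also highest in WT cells with the miR-331 mimic (100.5 ± 7.74 CPM). Its neighbours separated between the D538G miR-181c libraries (74.1 ± 8.87 CPM) and the Y537S let-7f inhibitor libraries (56.7 ± 3.15 CPM), and again before the Y537S miR-331 pair (4.13 ± 0.0312 CPM). HERC2P2 had another order, with the D538G mimic control highest at 47.3 ± 0.315 CPM and apart from the next condition, D538G with the miR-181c mimic (36.4 ± 5.47 CPM). At its lower end WT cells with the miR-301b mimic (15.5 ± 1.36 CPM) lay apart from both neighbours, and the Y537S miR-331 pair was last (2.07 ± 0.614 CPM).

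The 3 genes were also measured after the same mimic in WT cells. None of them was called lower in WT cells, where 10.6% of 15140 genes were called lower and 14.2% higher. COL7A1 rose, from 30.5 and 27.2 CPM in the control to 38.3 and 38.9 CPM in clones D1 and D4, so the groups did not overlap, as was so for 62.9% of tested genes. Its log2 fold change was 0.44 (SE 0.0873, adjusted p = 0.00462, edgeR quasi-likelihood test). A correction for GC content removed this rise, taking it to −0.023 (adjusted p = 0.926). With the WT miR-181c libraries as the control the log2 fold change of COL7A1 was 0.14 (adjusted p = 0.470). PABPC1L stood at 94.7 and 88.8 CPM in the control and at 105.9 and 95.0 CPM after the mimic, so that the groups lay side by side without overlap. Its log2 change was 0.15 (SE 0.0731, adjusted p = 0.150), while a fit with clone as a block gave 0.15 (adjusted p = 0.0450, with 19.8% of genes called higher). HERC2P2 stood at 28.2 and 21.6 CPM in the control and at 23.5 and 19.3 CPM after the mimic, with overlapping groups and a log2 change of −0.19 (SE 0.138, adjusted p = 0.350). The WT results were known when these genes were taken up.

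The Y537S log2 fold change minus the WT one was −5.05 (SE 0.256) for COL7A1, −3.82 (SE 0.171) for PABPC1L and −3.64 (SE 0.304) for HERC2P2. Because the Y537S comparison chose the genes, these differences carry no test. The genotypes are carried by different clones, so genotype and clone cannot be told apart in these differences. The median log2 fold change of all tested genes was −0.01 in Y537S and −0.0022 in WT cells. Falls of 3 or more on the log2 scale were seen for 195 of 14877 genes in Y537S and for 8 of 15140 in WT cells. Among genes that averaged at least 3 log2 CPM, the largest fall in WT cells was −1.84, for C6orf48. The genes next in order also diverged: in WT cells HSF4 had a log2 fold change of 0.39 (adjusted p = 0.00145), HNRNPU-AS1 of −0.49 (adjusted p = 0.0223), STAG3L5P-PVRIG2P-PILRB of −0.02 (adjusted p = 0.927) and MALAT1 of −0.81 (adjusted p = 0.000173).

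**Figure D3:**
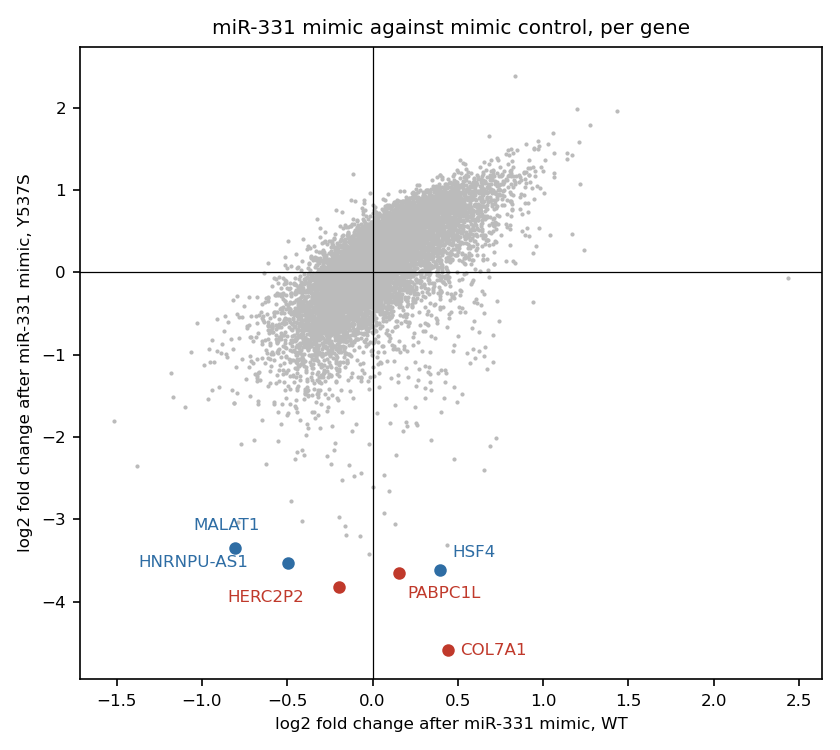
Log2 fold change after the miR-331 mimic in WT cells (x axis) and in Y537S cells (y axis) for 9945 genes that averaged at least 3 log2 CPM in the Y537S comparison, 1 point per gene. COL7A1, PABPC1L and HERC2P2 (red) lie at −4.59, −3.65 and −3.82 in Y537S cells and between −0.19 and 0.44 in WT cells, and HSF4, HNRNPU-AS1 and MALAT1 (blue) lie near them on the y axis.

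After the other microRNAs the log2 ratios of the 3 genes in single clones stayed between −0.77 and 0.51. The Y537S miR-301b comparison shares its control libraries with the one that chose the genes. There COL7A1 stood at 18.1 and 21.9 CPM after the miR-301b mimic, PABPC1L at 49.4 and 58.6 CPM and HERC2P2 at 23.3 and 28.9 CPM. Their log2 fold changes were 0.06 (SE 0.164, adjusted p = 0.873), 0.02 (SE 0.144, adjusted p = 0.965) and −0.20 (SE 0.154, adjusted p = 0.486). Each group overlapped its control, and none of the 3 was called, where 1.23% of 15145 genes were called higher and 2.34% lower.

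HERC2P2 was lower after the miR-301b mimic in WT cells, with 28.2 and 21.6 CPM in the control and 16.5 and 14.6 CPM after the mimic, which did not overlap, and 56.8% of tested genes did not either. The log2 fold change was −0.68 (SE 0.150, adjusted p = 0.0318), where 3.87% of 15113 genes were called lower. Without the clone D1 mimic control library it was −0.48 (adjusted p = 0.149). In D538G cells HERC2P2 stood at 47.1 and 47.5 CPM in the control and at 40.0 and 29.9 CPM after miR-301b in clones A5 and C2, again without overlap, as for 58.2% of tested genes. The log2 fold change was −0.44 (SE 0.132, adjusted p = 0.0575), where 6.49% of 14845 genes were called lower. A fit with clone as a block gave −0.45 (adjusted p = 4.58e-06, where 16.9% were called lower), and the call was also made without either clone A5 library, at −0.45 (adjusted p = 0.0227) without the control and −0.67 (adjusted p = 0.00670) without the treated one. It was not made without either clone C2 library, at −0.43 (adjusted p = 0.0541) without the control and −0.25 (adjusted p = 0.261) without the treated one. Whether miR-301b acted differently on HERC2P2 in the 3 genotypes was not tested. COL7A1 and PABPC1L were not called after miR-301b in either genotype, where 5.29% of genes in D538G and 4.63% in WT cells were called higher, with log2 fold changes of 0.22 (SE 0.152) and 0.0020 (SE 0.166) in D538G and 0.13 (SE 0.111) and 0.10 (SE 0.0944) in WT cells. With a GC correction both genes lay below 0 after miR-301b in all 3 genotypes. With the clone blocked as well, COL7A1 (−0.28, adjusted p = 0.0292), PABPC1L (−0.18, adjusted p = 0.0407) and HERC2P2 (−0.23, adjusted p = 0.0403) were called lower in Y537S cells, as were 14.1% of genes, and PABPC1L (−0.21, adjusted p = 0.0398) in D538G cells, as were 8.07%.

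After the miR-181c mimic no member passed the unblocked edgeR test. HERC2P2 stood at 40.3 and 32.5 CPM in D538G clones A5 and C2 against 47.1 and 47.5 CPM in the control, without overlap, and 54.9% of tested genes had none. Its log2 fold change was −0.37 (SE 0.112, adjusted p = 0.0673) and became −0.38 (adjusted p = 9.43e-05) with the clone blocked, and DESeq2 called it as well (−0.38, adjusted p = 0.0340). In the unblocked fit 3.95% of 14826 genes were called lower and 5.58% higher, and in the blocked one 13.6% were called lower. Without the treated clone A5 library the unblocked value was −0.54 (adjusted p = 0.0265), and without the treated clone C2 library −0.23 (adjusted p = 0.358). COL7A1 stood at 29.0 and 26.6 CPM after the mimic in D538G cells, against 25.2 and 21.1 CPM and without overlap, with a log2 change of 0.27 (SE 0.123, adjusted p = 0.199, and 0.0298 with the block). In WT cells it stood at 32.1 and 38.8 CPM in clones D1 and D4, with a log2 change of 0.28 (SE 0.116, adjusted p = 0.135, and 0.0422 with the block, or 0.41 and 0.0303 without the treated clone D1 library and 0.11 and 0.644 without the treated clone D4 library). Genes called higher in the blocked fits made up 15.6% in D538G and 14.5% in WT cells, and in the unblocked WT fit 8.1% were called higher and 8.28% lower. With a GC correction both COL7A1 values lay below 0, at −0.086 and −0.067, and with GC and clone both in the fit PABPC1L was called lower in D538G (−0.24, adjusted p = 0.000684) and WT cells (−0.22, adjusted p = 0.0216), beside 7.95% and 7.62% of genes. PABPC1L had log2 fold changes of −0.07 (SE 0.126) in D538G and −0.01 (SE 0.0973) in WT cells, and HERC2P2 of −0.20 (SE 0.133, adjusted p = 0.344) in WT cells.

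The let-7f inhibitor was compared with the inhibitor control in Y537S cells. COL7A1 stood at 18.5 and 21.0 CPM in clones 1 and 2 with the control and at 20.1 and 21.6 CPM after the inhibitor. PABPC1L went from 48.9 and 50.3 CPM to 54.5 and 58.9 CPM, and HERC2P2 from 26.6 and 25.3 CPM to 30.3 and 26.8 CPM. PABPC1L and HERC2P2 did not overlap between the groups, nor did 32.3% of 15140 tested genes, and both were higher after the inhibitor. The log2 fold changes were 0.08 (SE 0.128), 0.20 (SE 0.0823) and 0.14 (SE 0.112). The edgeR test called 0.0% of 15140 genes, with 786 at an unadjusted p under 0.05, while DESeq2 called 15 higher and 74 lower. Blocking on the clone, PABPC1L passed, at 0.20 (adjusted p = 0.0339), where 4.31% of genes were called higher.

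**Figure D4:**
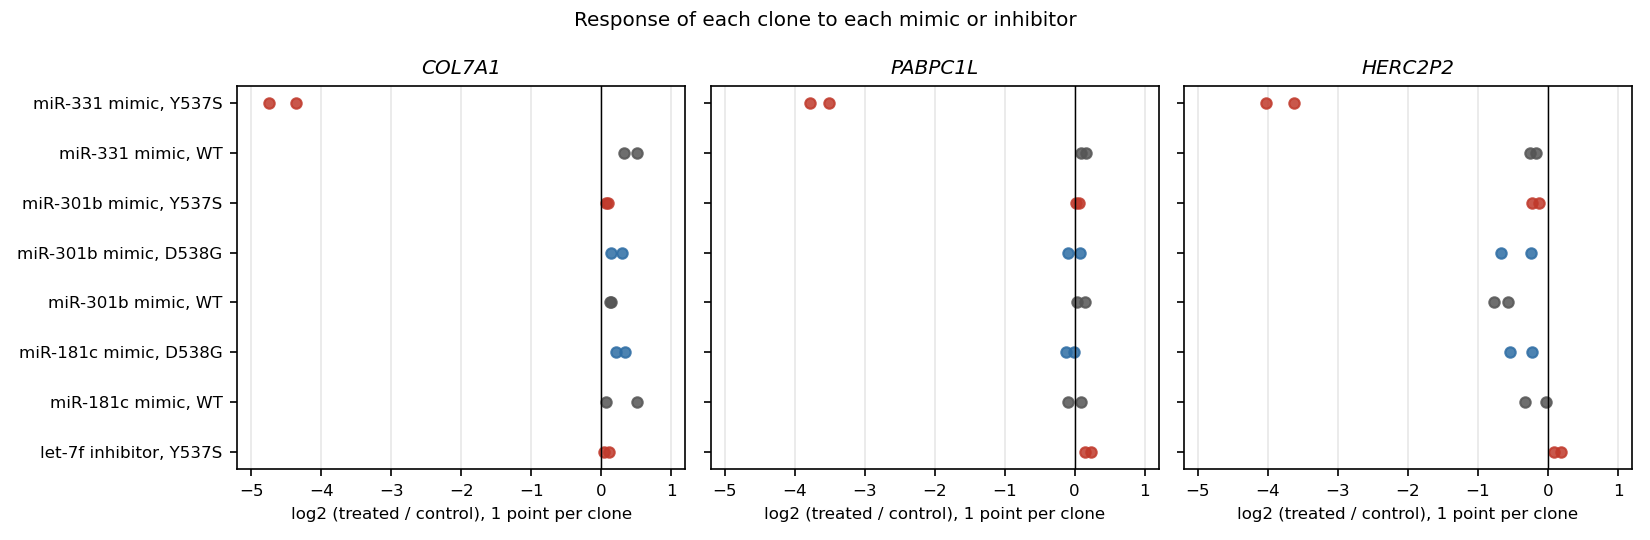
Log2 ratio of treated to control level (x axis) in each clone for the 8 treatment comparisons (y axis), 1 point per clone and 1 panel per gene. Both Y537S clones given the miR-331 mimic lie between −4.75 and −3.51, and all other points lie between −0.77 and 0.51.

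Levels of the 3 genes were also compared between genotypes in libraries without the miR-331 mimic. D538G and WT cells were compared with the mimic control. HERC2P2 was higher in D538G cells, at 47.1 and 47.5 CPM against 28.2 and 21.6 CPM, a log2 difference of 0.91 (SE 0.126, adjusted p = 0.000522), where 20.4% of 14942 genes were called higher. COL7A1 was at 25.2 and 21.1 CPM in D538G against 30.5 and 27.2 CPM in WT cells, a log2 difference of −0.33 (SE 0.122, adjusted p = 0.0558). PABPC1L was at 87.4 and 68.2 CPM against 94.7 and 88.8 CPM, a log2 difference of −0.25 (SE 0.112, adjusted p = 0.106). Neither gene overlapped between the genotypes, as was so for 71.7% of the tested genes, and neither passed the test. Without the clone A5 library, which had the higher level of both, these were −0.46 (adjusted p = 0.0152) and −0.44 (adjusted p = 0.00272), where 18.5% of genes were called lower with both clones. Without the clone C2 library they were −0.21 (adjusted p = 0.254) and −0.082 (adjusted p = 0.557).

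Y537S and WT cells were compared with the miR-301b mimic, since the Y537S mimic control took part in the choice of the genes. COL7A1 was lower in Y537S cells, at 18.1 and 21.9 CPM against 33.4 and 30.0 CPM, a log2 difference of −0.66 (SE 0.148, adjusted p = 0.0126). PABPC1L was lower too, at 49.4 and 58.6 CPM against 105.3 and 91.1 CPM, a log2 difference of −0.86 (SE 0.127, adjusted p = 0.00174). HERC2P2 was higher, at 23.3 and 28.9 CPM against 16.5 and 14.6 CPM, a log2 difference of 0.74 (SE 0.162, adjusted p = 0.0114). None of the 3 overlapped between genotypes, and neither did 63.2% of 15406 tested genes. Of these 15406 genes 8.37% were called lower and 12.0% higher. Leaving out 1 WT library ended the call for COL7A1 (−0.60, adjusted p = 0.126 without D1 and −0.75, adjusted p = 0.0636 without D4) and for HERC2P2 (0.83, adjusted p = 0.0732 without D1 and 0.65, adjusted p = 0.116 without D4). HERC2P2 in WT cells had been lower after the miR-301b mimic than in the control, so its difference here and that in the D538G comparison were taken under different treatments.

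Over the 24 libraries the log2 CPM of COL7A1 was most like that of PABPC1L (Pearson r = 0.99) among genes that averaged at least 3 log2 CPM, followed by SLC27A3, PTOV1-AS2 and SGK494 (0.98 to 0.99). The 24 points share clones and genotypes, and the Y537S miR-331 pair weighs heavily in them. In the other 22 libraries r with COL7A1 was 0.91 for PABPC1L and 0.74 to 0.84 for the other 3. PABPC1L was most like COL7A1, PPIEL, LINC01000 and LOC100131564, with r of 0.99 over 24 libraries and 0.91 to 0.96 over 22. HERC2P2 was most like USP32P1 (0.97), GOLGA8B (0.95), CHD2 (0.94) and LOC150776 (0.94), which was 0.53 to 0.74 over 22 libraries. HERC2P2 and COL7A1 had r = 0.87 over 24 libraries and −0.36 over 22, and HERC2P2 and PABPC1L had 0.85 and −0.23.

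The tested neighbours of COL7A1 and PABPC1L had log2 fold changes of −0.65 to 1.17 after miR-331 in Y537S cells. Around COL7A1 they were 0.86 for SHISA5 (adjusted p = 0.00618), 0.31 for PFKFB4 (adjusted p = 0.155), 0.90 for UQCRC1 of the respiratory chain (adjusted p = 0.00627) and −0.38 for SLC26A6 (adjusted p = 0.0663). PFKFB4 lies 2.06 kb from COL7A1, and UQCRC1 lies 3.67 kb from it. Around PABPC1L they were 0.12 for YWHAB (adjusted p = 0.261), which lies 1.53 kb away and encodes a 14-3-3 protein, 1.17 for KCNK15 (adjusted p = 0.0176), 0.43 for RIMS4 (adjusted p = 0.183), 0.21 for STK4-AS1 (adjusted p = 0.693) and −0.65 for STK4 (adjusted p = 0.0133). STK4 fell in WT cells as well (−0.61, adjusted p = 0.000173). TOMM34, which overlaps PABPC1L, had log2 fold changes of 0.37 in Y537S and −0.07 in WT cells. Around HERC2P2, NIPA1 fell by 0.37 (adjusted p = 0.0346) and WHAMMP3, another pseudogene, was at −1.36 (adjusted p = 0.0585).

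HERC2P7, 10.7 kb from HERC2P2, was called lower in Y537S cells (adjusted p = 0.0210), but its level was 0 and 0.0243 CPM there against 0.118 to 1.28 CPM elsewhere. Of 6 tested genes, HERC2 and its copies other than HERC2P2, 4 were called lower in Y537S and none higher, beside 15.8% and 17.2% of all genes, and none was called in WT cells. HERC2P3 stood at 0.520 and 0.754 CPM after miR-331 in Y537S cells against 9.02 to 25.7 CPM in the other 22 libraries, and its log2 fold change was −4.09 (SE 0.292, adjusted p = 0.00605). HERC2P9 stood at 2.13 and 1.60 CPM against 6.88 to 15.3 CPM, with −2.55 (SE 0.259, adjusted p = 0.00618). HERC2P4 lay at 0.694 and 1.53 CPM against 1.61 to 3.91 CPM, with −1.17 (SE 0.487, adjusted p = 0.120). The protein-coding HERC2 fell far less, to 110 and 118 CPM against 105 to 190 CPM, with −0.50 (SE 0.102, adjusted p = 0.0184), and HERC2P10 stayed at or below 0.619 CPM in every library. In WT cells HERC2P3 and HERC2P9 had log2 fold changes of −0.08 (adjusted p = 0.785) and −0.27 (adjusted p = 0.363). Reads of such copies can be split among them, so each copy's value is uncertain. Of 5 other HERC ligases HERC1 (−0.83, adjusted p = 0.00888) and HERC4 (−0.46, adjusted p = 0.0379) fell in Y537S cells, and none was called in WT cells, where the 4 of smallest p were HERC1 at −0.19, HERC4 at −0.19, HERC3 at −0.23 and HERC5 at 0.28.

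**Figure D5:**
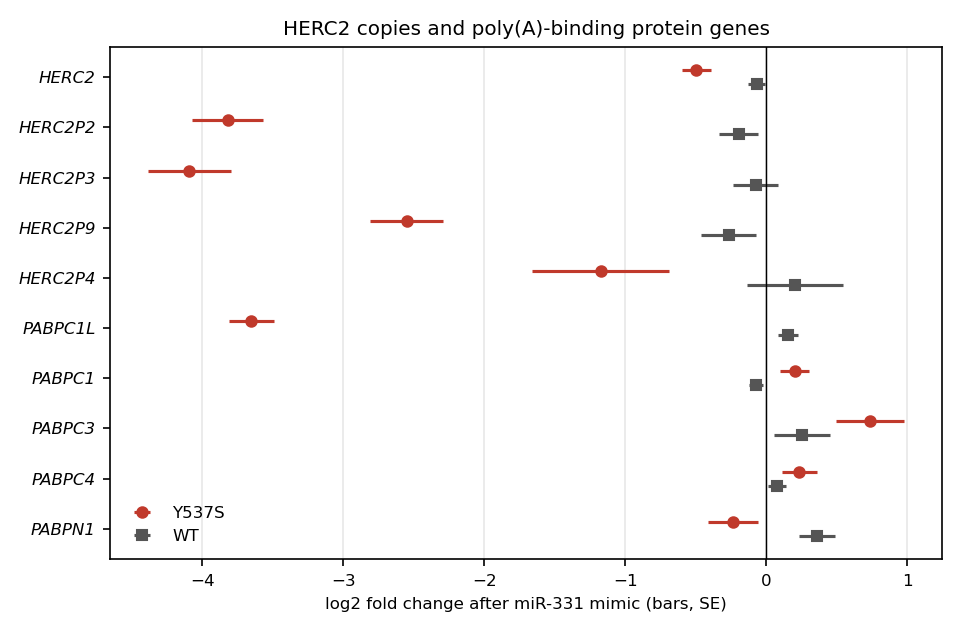
Log2 fold change after the miR-331 mimic (x axis, bars show the SE) in Y537S (circles) and WT cells (squares) for HERC2, 4 of its copies and 5 genes of poly(A)-binding proteins. HERC2P2, HERC2P3 and HERC2P9 lie at −3.82, −4.09 and −2.55 in Y537S cells and PABPC1L at −3.65, while PABPC1, PABPC3 and PABPC4 lie above 0.

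The other poly(A)-binding protein genes did not fall with PABPC1L. PABPC1, the major cytoplasmic form, stood at 2235 and 1955 CPM after miR-331 in Y537S cells against 1477 to 1975 CPM elsewhere, with a log2 change of 0.20 (SE 0.104, adjusted p = 0.190). PABPC4 was at 0.24 (SE 0.126, adjusted p = 0.205), PABPC3 at 0.74 (SE 0.240, adjusted p = 0.0657) and the nuclear PABPN1 at −0.24 (SE 0.175, adjusted p = 0.345). PABPC4L and PABPC5 stayed at or below 0.0516 CPM in every library. Of 21 tested poly(A)-binding proteins and their partners, 1 was called higher and 6 lower in Y537S cells (median log2 fold change −0.09), and 0 and 5 in WT cells (median −0.08; edgeR). Of all tested genes 17.2% were called higher and 15.8% lower in Y537S cells, and 14.2% and 10.6% in WT cells, with medians of −0.01 and −0.0022. The 4 called in both were EIF4G3, a translation initiation scaffold (−0.52 in Y537S and −0.25 in WT), PAIP2B, an inhibitor of poly(A)-binding protein (−0.51 and −0.66), and the microRNA silencing scaffolds TNRC6A (−0.71 and −0.25) and TNRC6B (−0.81 and −0.32).

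The partners of collagen VII did not fall as a group. Of 12 tested genes of hemidesmosomes and anchoring fibrils, 4 were called higher and 3 lower in Y537S cells (median log2 fold change 0.30), and 6 and 2 in WT cells (median 0.32), against 17.2% higher and 15.8% lower of all genes in Y537S and 14.2% and 10.6% in WT cells. Higher in both were ITGB4, an integrin chain of the hemidesmosome (0.87 in Y537S and 0.48 in WT), the plakin PLEC (0.49 and 0.40), the tetraspanin CD151 (0.80 and 0.49) and LAMB3 of laminin-332 (1.03 and 0.51). Lower in both were LAMA3 of laminin-332 (−0.98 and −0.26) and DST, another plakin (−1.40 and −0.44). LAMA5, a laminin chain of the basement membrane, was called lower in Y537S (−0.73, adjusted p = 0.0197) and higher in WT cells (0.63, adjusted p = 0.000109), and this difference was not tested. Values and calls of the genes in all lists were taken without a GC correction, which left fewer genes called in both genotypes.

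Of 20 tested genes for collagen modification, folding and export, 8 were called higher and 2 lower in Y537S cells (median 0.36), where 17.2% and 15.8% of all genes were, and 4 and 3 in WT cells (median 0.07), where 14.2% and 10.6% were. Called in both were the lysyl hydroxylases PLOD1 (0.64 and 0.23), PLOD3 (0.69 and 0.40) and PLOD2 (−0.61 and −0.39), the collagen chaperone SERPINH1 (0.74 and 0.37) and MIA3, which helps collagen leave the endoplasmic reticulum (−0.50 and −0.25). Of 20 other collagen genes tested in Y537S cells, 0 were called higher and 2 lower by edgeR (17.2% and 15.8% of all genes). The 2 were COL16A1 (−1.98, adjusted p = 0.0183) and COL28A1, whose median over all libraries was 0.488 CPM. In WT cells 3 of 21 were called higher (14.2% of all genes), which were COL9A2 (0.50), COL18A1 (0.45) and COL1A1 (0.33). COL20A1, with a median of 0.218 CPM over all libraries, had the next smallest p, at a log2 change of 2.28 (adjusted p = 0.0810). In Y537S cells the 3 called in WT cells lay at 0.31, 0.21 and −0.14 and were not called.

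The share of genes called lower was also taken by kind of gene. Among lncRNAs 18.0% of 766 tested were called lower in Y537S and 1.33% of 830 in WT cells, with median log2 fold changes of −0.35 and 0.01. Among pseudogenes, the kind to which HERC2P2 belongs, 22.8% of 246 were called lower in Y537S and 4.91% of 265 in WT cells, with medians of −0.47 and −0.12. Among protein-coding genes, to which COL7A1 and PABPC1L belong, the shares were 15.2% and 11.7%, with medians of 0.02 and −0.00066. These kinds were compared after the members' values were known, and the difference between the genotypes was not tested.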

How the data were processed

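Poly-A RNA-seq was made from 24 libraries of T-47D clones. HISAT2 was the authors' aligner, hg19 their build, and featureCounts (Subread) with UCSC Known Genes their counter. They deposited raw counts per gene, not normalized. Tool versions, the strand setting and the handling of multi-mapping reads are not given in the sources used here. Y537S columns name clones as the labels do, and D538G and WT columns name clones (A5, C2, D1, D4) that were assigned to a condition and not to a single sample. Replicates varied 11.2 to 48.3 times more than counting noise, so none was a copy.

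Treated and control libraries of a genotype were fitted with edgeR 4.0.16 in R 4.3.3 (TMM, filterByExpr, quasi-likelihood F test, two-sided). P-values were Benjamini-Hochberg adjusted over all genes tested, with a gene called when its adjusted p was under 0.05. An SE is the fold change divided by the square root of F. CPM used TMM factors over 24 libraries, and log2 CPM a prior count of 2. With 2 clones per group, an exact permutation test of one gene cannot go below p = 0.333, so the model across genes was used. Clones are the replicates, and p-values cover the spread between 2 clones. Same-named libraries come from the same cell line, so the clone pairs them. The correlation across genes of clone differences between treated and control libraries was 0.17 to 0.59. The unblocked fit was the main one, as in the study's methods. Alternatives were DESeq2 1.42.0, RLE size factors, no filter, a GC correction (lowess, span 0.3), the clone as a block, all conditions in 1 fit, leaving out each library, and, added after seeing the data, other control libraries.

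The edgeR script was tested on simulated data: in the WT miR-331 comparison, on 14924 genes, 97 of 100 genes changed 2-fold and 100 of 100 changed 4-fold were called, and 20 of 14724 unchanged ones. Changed genes were drawn only from those above a minimum CPM, in independent libraries with the spread of the WT clones. Replicate spread was 33.9 and 45.6 times counting noise in the Y537S mimic control and miR-331 mimic, against 11.2 and 12.1 in WT cells. The shares called therefore do not cover Y537S cells or low-count genes. GENCODE v44 lifted to hg19 gave positions, GC content and transcripts for 22494 genes matched by symbol and 1363 by synonym (2507 unmatched). Named genes were the 3 members, the 4 next in order of fall, the 4 most correlated with each, 3 neighbours on each side where tested, HERC2 copies, PABPC genes, and list genes called in both genotypes or otherwise up to 4 of smallest p in WT cells. Others (NEAT1, LINC01004, SEC31B, C6orf48, TOMM34, LAMA5 and COL16A1 among them) were named after their values were seen. The members, gene lists and tests were chosen with earlier results of these data known. Python 3.11.15, pandas 2.3.3 and numpy 2.4.6 joined the tables.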

Additional observations from a re-analysis of the deposited data

Results flagged for a closer look

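After the miR-331 mimic, both Y537S clones moved down and both WT clones moved up for COL7A1 and PABPC1L. The mean log2 ratio of the 2 clones was −4.55 in Y537S and 0.42 in WT cells for COL7A1, and −3.64 and 0.13 for PABPC1L. The difference was not tested, because the Y537S values chose the genes. A GC correction took the WT values of both genes to just below 0.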

How the results depend on the processing

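Of 346 alternative values for 32 results, 263 kept their direction and their side of the threshold or stayed within the clone spread. Among the others, 36 reversed direction, 26 became stronger, 13 became weaker and 8 moved beyond the clone spread. The falls in Y537S cells kept their direction under every alternative run. The genes were chosen for large falls in these same libraries, so this gives no independent support. The cause of the changes under the alternatives was not tested. With 2 clones per group, small differences between clones decide many calls, and COL7A1 counts of 24 and 39 limit its precision in Y537S cells.

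A GC correction gave −4.98 for COL7A1 and −3.96 for PABPC1L in Y537S cells with miR-331, and −0.023 and −0.057 in WT cells. After miR-301b it gave −0.28 and −0.19 in Y537S, −0.12 and −0.20 in D538G and −0.23 and −0.085 in WT cells, and after miR-181c −0.086 and −0.067 for COL7A1 in D538G and WT cells. COL7A1 in D538G against WT cells came to −0.44. It left 3055 genes called in Y537S and 1163 in WT cells with miR-331, against 4913 and 3755.

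With the clone as a block, called genes in Y537S cells with miR-331 rose to 9035. Blocked values were 0.15 for PABPC1L with miR-331 in WT, −0.0092 for PABPC1L and −0.45 for HERC2P2 with miR-301b in D538G, 0.27 for COL7A1 and −0.38 for HERC2P2 with miR-181c in D538G, 0.28 for COL7A1 with miR-181c in WT, and 0.20 for PABPC1L with the let-7f inhibitor. The block changed no other call of the 3 genes.

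The block with a GC correction called 7952 genes in Y537S cells with miR-331. It gave −4.99 for COL7A1 and −3.95 for PABPC1L there, and −0.020 and −0.057 in WT cells. After miR-301b, COL7A1 and PABPC1L came to −0.28 and −0.18 in Y537S, −0.13 and −0.21 in D538G and −0.24 and −0.091 in WT cells, and HERC2P2 to −0.23 in Y537S and −0.48 in D538G. After miR-181c, COL7A1 and PABPC1L came to −0.085 and −0.24 in D538G and −0.064 and −0.22 in WT cells, and HERC2P2 to −0.36 in D538G.

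DESeq2 called HERC2P2 in D538G cells after miR-301b (−0.44) and miR-181c (−0.38). Without a filter HERC2P2 was called there too (−0.45 and −0.37), PABPC1L after miR-301b in D538G was −0.0038, and COL7A1 (−0.33) and PABPC1L (−0.24) were called lower in D538G than in WT cells. With all WT conditions in 1 fit PABPC1L after miR-181c was 0.0058. With the WT miR-181c libraries as the control, added after seeing the data, COL7A1 after miR-331 was 0.14, and 1280 genes were called.

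Leaving out each library in turn, after miR-331 in Y537S cells, gave −4.94 to −4.28 for COL7A1, −4.13 to −3.53 for HERC2P2 and −3.79 to −3.49 for PABPC1L, with 3075 to 4799 genes called, lowest without mimic control clone 2. In WT cells it gave 1550 to 3628 called genes, lowest without miR-331 clone D1, and −0.37 to 0.0070 for HERC2P2. After miR-301b, PABPC1L ranged over −0.12 to 0.18 in Y537S, −0.30 to 0.25 in D538G and −0.013 to 0.20 in WT cells, COL7A1 over −0.079 to 0.20 in Y537S, and HERC2P2 over −0.67 to −0.25 in D538G and −0.86 to −0.48 in WT cells. After miR-181c, PABPC1L ranged over −0.24 to 0.13 in D538G and −0.16 to 0.096 in WT cells, COL7A1 over 0.11 to 0.41 in WT, and HERC2P2 over −0.54 to −0.23 in D538G cells. COL7A1 after the let-7f inhibitor ranged over −0.0077 to 0.19. Between D538G and WT cells, COL7A1 ranged over −0.46 to −0.21 and PABPC1L over −0.44 to −0.082, and between Y537S and WT cells, COL7A1 over −0.80 to −0.54 and HERC2P2 over 0.59 to 0.88. A condition left with 1 library was assumed to vary like the other.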
